A study of Mus musculus with 6 samples.

Results

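Chylomicron and enterocyte lipid absorption genes were followed in colon of mice lacking Hdac2, which encodes a histone deacetylase, in intestinal epithelium. The set was chosen by gene symbol: all probe sets annotated to Fabp1, Fabp2, Mogat2, Dgat1, Mttp, Apob, Apoa1, Apoa4, Apoc2 or Apoc3, which gave 18 of the 45037 probe sets and 10 of the 18193 named genes on the array. The HDAC2 KO group was 3 colon samples from mice whose floxed Hdac2 alleles were crossed with a Cre recombinase driven by villin, a promoter active in intestinal epithelial cells. The control group was 3 colon samples, and the labels do not say which floxed or Cre alleles the control mice carried. The series text gives a mixed CD-1/129/C57BL/6 background, and the mice were untreated and ate a normal diet, with no age in the labels. The titles and genotype labels name HDAC2 alone, whereas the description of that group names HDAC1/2, and source labels name epithelium where the extraction text names colon.

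Dietary fat leaves the gut through a chain of steps that is typical of small intestinal enterocytes. Fatty acid binding proteins carry absorbed fatty acids through the cytosol, acyltransferases join them to monoacylglycerol to rebuild triglyceride, and the microsomal transfer protein loads that triglyceride onto apolipoprotein B. Smaller apolipoproteins coat the finished chylomicron, which is secreted to the lymph and not to the portal blood. The colon absorbs little dietary fat, and the question put to the data was which of these steps had more transcript in HDAC2 KO colon.

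The signals below are RMA values on the log2 scale, so that 1 unit is a doubling of signal, and every difference is HDAC2 KO minus control. A gene or probe set is said to be called, or to have risen or fallen, at a Benjamini-Hochberg adjusted p under 0.05 in limma. The gene test took the brightest probe set of each gene and covered the 10916 genes with a mean signal of at least 6.66, and the probe set test covered all 45037 probe sets with no filter. Levels of different probe sets are not compared, because each binds with its own efficiency.

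Array medians lay between 6.17 and 6.21. Hdac2 itself, read by its brightest probe set, gave 10.21, 10.12 and 10.24 on the HDAC2 KO arrays and 10.40, 10.37 and 10.43 on the control arrays, a difference of -0.21 (SE 0.040, limma adjusted p = 0.00893). That probe set is of a design that may bind several transcripts, and among all probe sets its reading was not called (adjusted p = 0.0768). The further Hdac2 probe sets differed by -0.22 (adjusted p = 0.253) and -0.078 (adjusted p = 0.867) and were not called. Whether any probe set lies within the removed part of the gene was not analysed here. Every array carried signal of the X-inactivation RNA Xist and of Y-linked genes, although the source labels name 1 numbered mouse per array. Xist read 11.52 to 11.56 in HDAC2 KO and 11.99 to 12.04 in control, and Y-linked Eif2s3y read 7.89 to 8.32 in HDAC2 KO and 7.48 to 7.56 in control. The part of these sex-linked signals in the results below was not tested, and if arrays hold pools, the errors describe spread between pools.

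The steps of the chain gave different readings. Transcripts of the fatty acid binding proteins and of the surface apolipoproteins were higher in HDAC2 KO colon, by 1.70-fold to 5.46-fold on every probe set. Those of the acyltransferases were not called here, though Mogat2 was in some other settings, and those of particle assembly gave mixed readings, with the Apob gene lower. In the gene test 6 of the 10 genes passed the signal filter, and both group means of each of the 6 lay above it. Of these, 4 rose (Fabp2, Apoa1, Apoa4 and Apoc2), 1 fell (Apob) and 1, Dgat1, was not called, where 9.68% of all genes tested rose and 8.2% fell. The groups of arrays did not overlap for any of the 6, nor for 37.7% of all genes tested. All 4 that rose did so by at least 1.5-fold, as did 0.55% of all genes, and Apoa1 and Apoa4 by at least 2-fold, as did 0.174%. The other 4, Fabp1, Apoc3, Mttp and Mogat2, had means from 6.20 to 6.58, just under the filter, and were read in the probe set test. Without the filter 6 of the 10 genes rose and 1 fell, where 3.88% of 18193 genes rose and 3.74% fell (7.62% in all). There 12 of the 18 probe sets rose and 0 fell, against 1.72% of all probe sets higher and 2.08% lower (3.8% called). The median difference over the 18 was 1.10, and over all probe sets 0.0041. The genes of the set were chosen with earlier results of these data known. These counts therefore describe the set beside all genes and are no test of it.

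**Figure D1:**
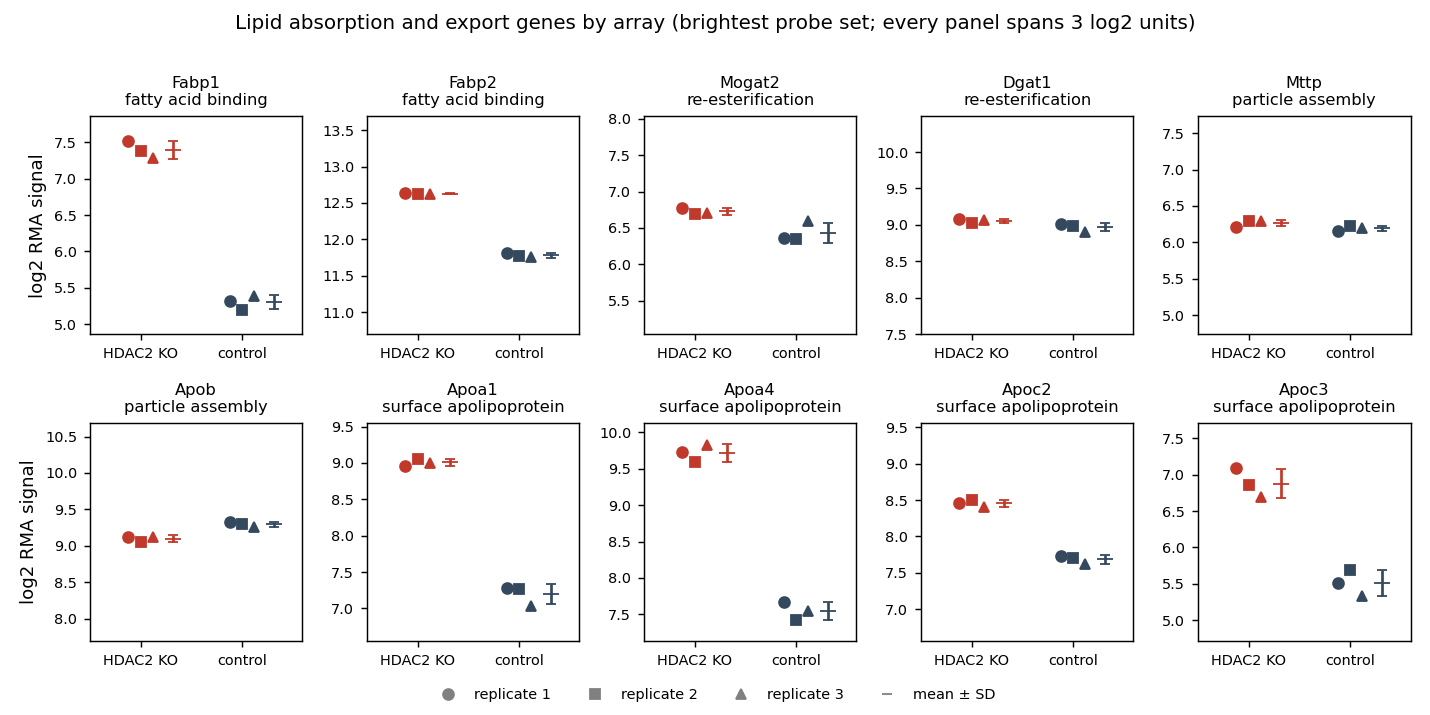
Signal of each gene by array, from its brightest probe set, as log2 RMA signal on axes that all span 3 units, with HDAC2 KO left of control and the mean ± SD beside the 3 arrays. The groups lie clearly apart for Fabp1, Fabp2 and the 4 apolipoproteins Apoa1, Apoa4, Apoc2 and Apoc3, and close together for Mogat2, Dgat1, Mttp and Apob.

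Fabp1, the liver-type fatty acid binding protein that is also made by enterocytes, showed one of the largest rises. Its brighter probe set read 7.52, 7.38 and 7.29 in HDAC2 KO and 5.32, 5.19 and 5.39 in control. The lowest HDAC2 KO array was thus well above the highest control array. The difference was 2.10 (SE 0.078, limma adjusted p = 1.67e-05), a 4.27-fold higher signal that ranked 10 of 45037 probe sets by size of rise. A further Fabp1 probe set read 7.61, 7.39 and 7.57 in HDAC2 KO and 5.18, 5.24 and 4.80 in control, 5.46-fold higher (2.45, SE 0.12, adjusted p = 5.81e-05), and ranked 8. In HDAC2 KO these Fabp1 signals stood at the 66.2 and 67.6 percentile of all probe sets. In control they stood at the 35.2 and 31.5 percentile, in the lower part of the array's range, where background correction compresses differences and a fold is understated.

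Fabp2, the intestinal fatty acid binding protein, was already among the brightest probe sets in control and rose further. It read 12.64, 12.62 and 12.62 in HDAC2 KO and 11.82, 11.77 and 11.76 in control, with very little spread in either group. The difference was 0.85 (SE 0.033 in the gene test, adjusted p = 1.89e-06), or 1.80-fold, which placed Fabp2 at rank 27 of 10916 genes. In HDAC2 KO its signal stood at the 98.8 percentile of all probe sets, and in control at the 97.5 percentile. Within each array the log2 signal of Fabp2 minus that of Fabp1 was 5.23 ± 0.11 in HDAC2 KO and 6.48 ± 0.10 in control (SD, n = 3 each), so that the measured change of Fabp2 was 1.25 log2 units smaller than that of Fabp1. Since the control signal of Fabp1 lies in the compressed range, the size of this difference is not exact. With 3 against 3 arrays the exact permutation test cannot give a p under 0.1, which is what it gave (2-sided, 0.117 adjusted over the 7 pairs of genes compared).

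The promoters of both binding protein genes are shown because the genes rose together, each from 250 bases before to 50 bases after the start in RefSeq's annotation of GRCm38.p6, with the letters that matched a motif in capitals.
Fabp1 promoter, chr6:71199629-71199928, + strand: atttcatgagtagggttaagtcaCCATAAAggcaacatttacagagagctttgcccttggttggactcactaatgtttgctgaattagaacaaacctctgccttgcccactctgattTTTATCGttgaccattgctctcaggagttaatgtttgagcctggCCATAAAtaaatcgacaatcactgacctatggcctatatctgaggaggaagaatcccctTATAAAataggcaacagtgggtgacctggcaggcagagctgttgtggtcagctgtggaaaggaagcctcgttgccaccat
Fabp2 promoter, chr3:122894822-122895121, + strand: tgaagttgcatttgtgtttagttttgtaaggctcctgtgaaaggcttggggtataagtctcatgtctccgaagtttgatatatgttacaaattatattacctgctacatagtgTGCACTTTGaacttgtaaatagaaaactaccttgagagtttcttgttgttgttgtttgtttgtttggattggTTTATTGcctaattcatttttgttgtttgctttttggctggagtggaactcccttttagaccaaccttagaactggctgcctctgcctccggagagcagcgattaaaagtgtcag
Such windows were found for 7 of the 10 genes, and all 32851 promoters of the table served for comparison. The motifs searched on both strands were CAAAGTNCA, bound by HNF4 nuclear receptors, TTTATNG, bound by CDX homeobox factors, AGATAA, bound by GATA factors, and TATAAA, the TATA box. The HNF4 letters stood in Fabp2 at positions -137 to -129 on the opposite strand, a motif held by 1.41% of all promoters. The CDX letters stood once in Fabp2 (-65 to -59) and at 3 places in Fabp1 (starting at -227, -133 and -89), against 10.9% of promoters with at least 1 match. A TATA box lay at -30 to -25 of Fabp1, a motif held by 13.6% of promoters, and the GATA letters, held by 11.2%, were in none of the 7 windows. These matches are descriptions of letters only.

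Mogat2 and Dgat1 encode the acyltransferases of triglyceride resynthesis. Mogat2, the intestinal monoacylglycerol acyltransferase that makes diacylglycerol, read 6.78, 6.70 and 6.71 in HDAC2 KO and 6.36, 6.35 and 6.60 in control. The groups did not overlap, as for 23.2% of all probe sets, but control replicate 3 came close to the HDAC2 KO arrays. The difference of 0.29 (SE 0.075, adjusted p = 0.0969) was not called. Without control replicate 3 it was 0.37 with an adjusted p of 0.0338. The adjusted p was also under the threshold when variances were fitted robustly with a trend on intensity (0.0377) and with array weights (0.0412). With other single arrays left out the adjusted p went up to 0.294. In the gene test without a signal filter Mogat2 was not called (adjusted p = 0.0589). In the gene test with all probe sets of each gene averaged, where Mogat2 passed the filter, its adjusted p was 0.0174. Averaging left its difference at 0.29, so this is the same reading in another set of genes tested.

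Dgat1, the acyltransferase that adds the last fatty acid to make triglyceride, differed little between the groups. Its brighter probe set read 9.08, 9.02 and 9.06 in HDAC2 KO and 9.01, 8.99 and 8.91 in control, groups that nearly touched. The difference was 0.087 (SE 0.039 in the gene test, adjusted p = 0.174), a 1.06-fold reading that was not called. The dimmer Dgat1 probe set overlapped between the groups, at 5.96 ± 0.099 in HDAC2 KO and 5.92 ± 0.069 in control (SD, n = 3 each, adjusted p = 0.820). For the pair of enzymes, the within-array signal of Dgat1 minus that of Mogat2 was 2.33 ± 0.026 in HDAC2 KO and 2.53 ± 0.19 in control (exact permutation p = 0.3, 2-sided, n = 3 each).

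Particle assembly rests on Apob, the large structural protein of which each chylomicron holds a single copy, and on Mttp, the large subunit of the microsomal triglyceride transfer protein. Apob was the only gene of the set called lower. Its brighter probe set read 9.12, 9.05 and 9.12 in HDAC2 KO and 9.32, 9.31 and 9.26 in control, so the groups were apart by a small margin. The signal fell by 12.8%, a difference of -0.20 (SE 0.038, adjusted p = 0.00908) in the gene test. Among all probe sets the same reading was not called (adjusted p = 0.0838), and the dimmer Apob probe set, at 4.84 ± 0.15 in HDAC2 KO and 4.74 ± 0.14 in control (SD, n = 3 each), overlapped and differed by 0.10 (adjusted p = 0.684). With the mean of both probe sets the Apob difference was -0.047 (adjusted p = 0.569), so the call rests on the brighter one.

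The Apob promoter is given as that of the gene that went the other way.
Apob promoter, chr12:7977427-7977726, + strand: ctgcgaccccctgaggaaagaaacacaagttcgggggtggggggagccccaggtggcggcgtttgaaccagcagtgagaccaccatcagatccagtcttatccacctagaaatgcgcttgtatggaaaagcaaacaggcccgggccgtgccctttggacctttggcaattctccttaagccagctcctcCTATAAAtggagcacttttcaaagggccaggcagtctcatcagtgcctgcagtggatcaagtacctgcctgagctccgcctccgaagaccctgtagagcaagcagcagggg
Its capitals are a TATA box at -60 to -55 that overlaps a match of the CDX letters on the opposite strand at -61 to -55. No HNF4 or GATA letters were found in it.

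Mttp was read differently by its 2 probe sets. The brighter gave 6.22, 6.29 and 6.30 in HDAC2 KO and 6.16, 6.22 and 6.20 in control, which overlapped and differed by 0.076 (SE 0.049, adjusted p = 0.518). The dimmer gave 5.60, 5.38 and 5.79 in HDAC2 KO and 4.88, 4.63 and 4.88 in control, which did not overlap. That probe set rose 1.73-fold (0.79, SE 0.11, adjusted p = 0.0110), moving to the 40.1 percentile of all probe sets in HDAC2 KO, against the 27.0 percentile in control. No probe sequences were used here, so which of the readings follows the Mttp transcript was not tested. By the brighter probe sets, the signal of Mttp minus that of Apob was -2.83 ± 0.075 in HDAC2 KO and -3.10 ± 0.056 in control, a difference of changes of 0.27 (exact permutation p = 0.1, n = 3 each).

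**Figure D2:**
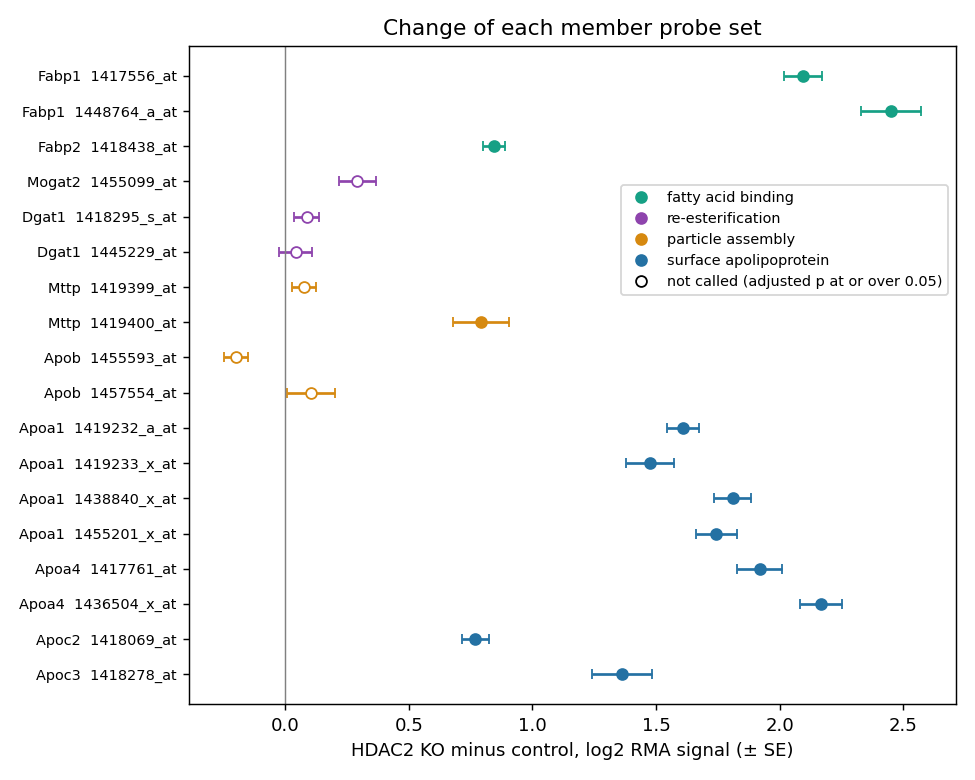
Difference in log2 RMA signal, HDAC2 KO minus control, of each of the 18 probe sets with its SE from the limma test over all probe sets, coloured by step. Filled points were called, and the open points are the readings of Mogat2, Dgat1 and Apob and the brighter of the 2 Mttp probe sets.

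The surface apolipoproteins rose on every probe set. Apoa4, a large apolipoprotein that the small intestine adds to nascent chylomicrons, read 9.73, 9.59 and 9.83 in HDAC2 KO and 7.67, 7.43 and 7.54 in control. The gap between the groups was many times the spread within them, and the difference of 2.17 (SE 0.076, adjusted p = 1.05e-06) ranked 4 of 10916 genes. The dimmer Apoa4 probe set, which is designed for 1 transcript, read 8.38, 8.27 and 8.54 in HDAC2 KO and 6.33, 6.54 and 6.56 in control, 3.78-fold higher (1.92, SE 0.091, adjusted p = 4.80e-05).

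The Apoa4 promoter is shown as that of the apolipoprotein gene with the largest rise.
Apoa4 promoter, chr9:46240594-46240893, + strand: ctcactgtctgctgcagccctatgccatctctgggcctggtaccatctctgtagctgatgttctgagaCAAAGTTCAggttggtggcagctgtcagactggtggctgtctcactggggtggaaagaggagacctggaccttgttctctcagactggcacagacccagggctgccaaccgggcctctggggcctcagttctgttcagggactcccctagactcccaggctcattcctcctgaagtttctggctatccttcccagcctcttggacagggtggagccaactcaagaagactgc
Its capitals mark a match of the HNF4 letters at -182 to -174 on the same strand, so that 2 of the 7 windows, those of Apoa4 and Fabp2, held this motif. No CDX, GATA or TATA letters were found in the Apoa4 window. In the Apoc2 window the CDX letters stood once, and the windows of Apoa1 and Mttp held none of the 4 motifs.

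Apoa1, the main protein of high-density lipoprotein and also a chylomicron coat protein, was read by 4 probe sets. The brightest gave 8.96, 9.06 and 9.003 in HDAC2 KO and 7.29, 7.27 and 7.04 in control, a difference of 1.81 (SE 0.067, adjusted p = 1.40e-06) that ranked 5 of 10916 genes. The other 3 rose by 1.48, 1.61 and 1.74. All 4 are of designs that may catch more than 1 transcript, and they ranked between 16 and 28 of 45037 probe sets by size of rise. By the brightest probe sets Apoa4 changed by 0.36 log2 units more than Apoa1: the signal of Apoa4 minus that of Apoa1 was 0.71 ± 0.15 in HDAC2 KO and 0.35 ± 0.18 in control (SD, n = 3 each, exact permutation p = 0.1). The dimmer Apoa4 probe set rose by 1.92, nearer to the 1.81 of Apoa1, so the size of this gap depends on the probe set.

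Apoc3, an inhibitor of lipoprotein lipase and of the uptake of remnants, read 7.09, 6.85 and 6.70 in HDAC2 KO and 5.52, 5.69 and 5.34 in control. All 3 HDAC2 KO arrays were above all control arrays by a log2 unit or more. The difference was 1.36 (SE 0.12, adjusted p = 0.00101), or 2.57-fold, with control signals at the 38.8 percentile of all probe sets, where folds are compressed. Apoc2, the cofactor that activates lipoprotein lipase, read 8.46, 8.50 and 8.40 in HDAC2 KO and 7.73, 7.71 and 7.62 in control. Its rise of 0.77 (SE 0.043, adjusted p = 1.59e-05), or 1.70-fold, ranked 32 of 10916 genes. The signal of Apoc2 minus that of Apoc3 was 1.57 ± 0.18 in HDAC2 KO and 2.17 ± 0.14 in control, a smaller change of Apoc2 by 0.59 log2 units (exact permutation p = 0.1, n = 3 each).

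Apoa4 was also set against the assembly genes. The signal of Apoa4 minus that of Apob was 0.62 ± 0.082 in HDAC2 KO and -1.75 ± 0.12 in control, a difference of changes of 2.37 log2 units. For Apoa4 minus Mttp, by its brighter probe set, the values were 3.45 ± 0.13 in HDAC2 KO and 1.36 ± 0.16 in control, a difference of changes of 2.09 (exact permutation p = 0.1 for each, n = 3 per group). The 7 pairs had adjusted p-values of 0.117, or 0.3 for Dgat1 and Mogat2, so none passed a threshold of 0.05, which this number of arrays cannot reach.

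**Figure D3:**
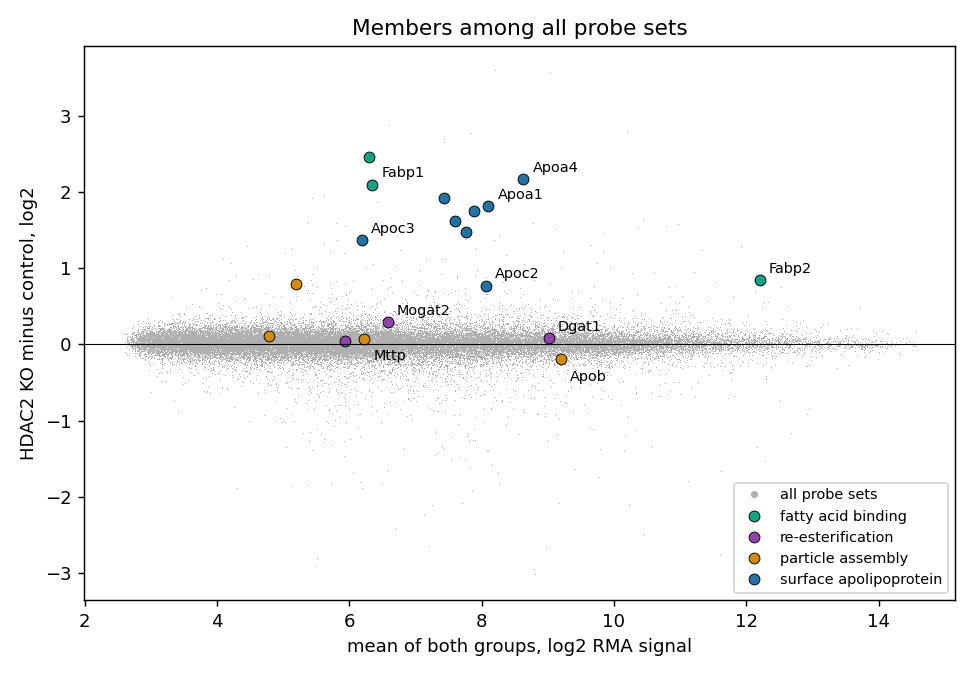
Difference in log2 RMA signal, HDAC2 KO minus control, against the mean signal of both groups for all 45037 probe sets (grey), with the 18 of the lipid genes coloured by step and the brightest of each gene named. The binding proteins and surface apolipoproteins stand above the bulk of probe sets at low, middle and high signal, and Dgat1, Mogat2 and Apob lie within or at the edge of it.

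Position on the chromosome was not used to choose the genes. Apoa1, Apoc3, Apoa4 and Apoa5 follow each other on chromosome 9 in the RefSeq annotation. The 3 called on the array rose by 1.36 to 2.17, while Apoa5, an activator of lipoprotein lipase made in the liver, read 6.24 ± 0.041 in HDAC2 KO and 6.25 ± 0.074 in control (SD, n = 3 each), with groups that overlapped. The 3 tested genes on either side of the cluster, Sidt2, Pafah1b2 and Sik3 and then Zpr1, Bud13 and 4931429L15Rik, differed by -0.067 to 0.052, and 0 of the 6 were called (adjusted p from 0.253 to 0.961), where 17.9% of all genes tested were.

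Apoc2 lies on chromosome 7 beside Apoc4, Apoc1 and Apoe. These neighbours went apart: Apoe, the ligand for remnant uptake, fell by 0.31 log2 units (10.47 ± 0.043 in HDAC2 KO and 10.79 ± 0.042 in control, adjusted p = 0.00113), and Apoc1 fell by 0.42 (6.47 ± 0.13 in HDAC2 KO and 6.89 ± 0.056 in control, adjusted p = 0.00326). Apoc4 was under the signal filter and overlapped, at 5.63 ± 0.14 in HDAC2 KO and 5.56 ± 0.14 in control. Of the 3 tested genes on either side, Clasrp, Relb and Clptm1 and then Tomm40, Nectin2 and Bcam, 0 were called, with differences from -0.061 to 0.10. Among all genes tested 17.9% were called.

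**Figure D4:**
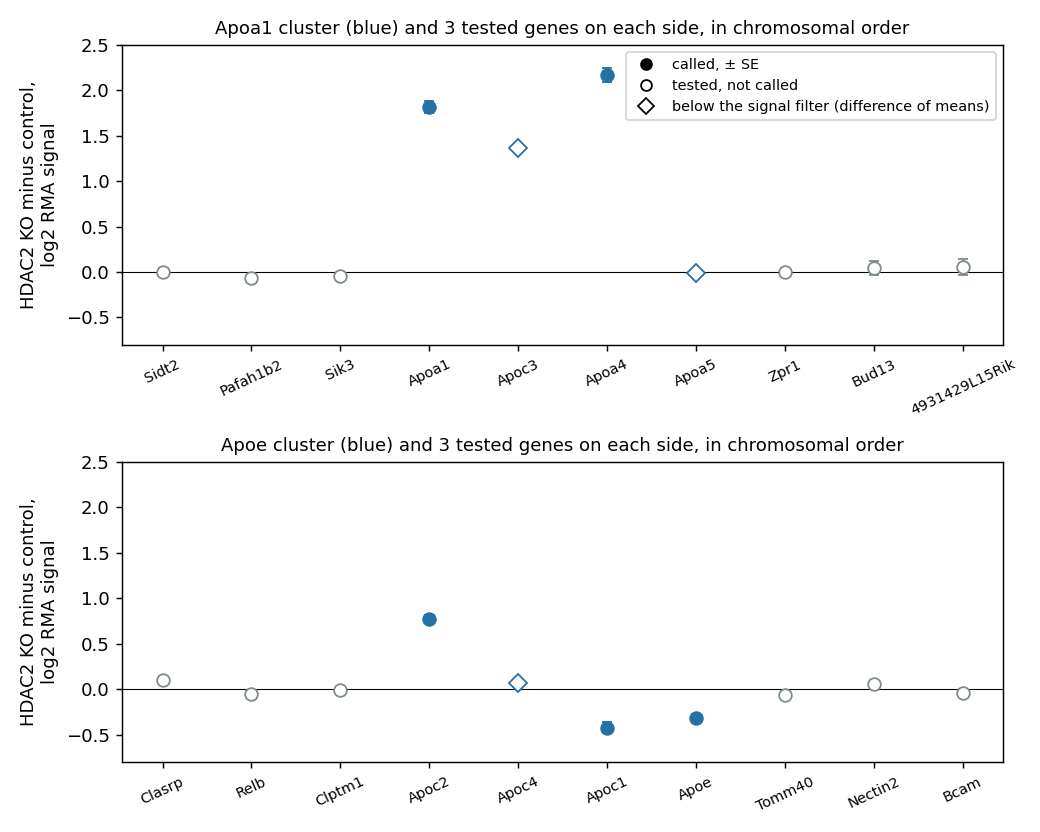
Difference in log2 RMA signal, HDAC2 KO minus control, with SE where tested, for the genes of both apolipoprotein clusters (blue) and the 3 tested genes on each side (grey), in chromosomal order and not to scale, with diamonds for genes under the signal filter. Apoa1, Apoc3 and Apoa4 stand at 1.36 to 2.17 between neighbours near 0, and Apoc2 is higher while Apoc1 and Apoe are lower.

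The tested genes outside the set with the nearest profiles over the 6 arrays were sought for the 3 called genes with the largest differences. Distances were Euclidean, in log2 units, after each profile was set to its control mean. Genes of the set were not ranked, so a nearer profile may lie within the set. Nearest to Apoa4 outside the set were Reg3g at 0.87, Meg3 at 1.06 and Cyp4f14 at 1.07. Nearest to Apoa1 were Meg3 at 0.52, Itln1 at 0.58 and Cyp2c65 at 0.59. Fabp2 had closer neighbours, Slc13a1 at 0.076, St3gal4 at 0.098 and Ly6m at 0.15. With 3 arrays a group these distances reflect mostly the size of the group difference.

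The wider machinery of lipid handling was described by 9 lists of other genes, of which 117 different genes were tested. Of these, 16 rose and 24 fell, with a median difference of -0.0011, against 9.68% higher, 8.2% lower and a median of 0.0032 over all genes tested. In the chylomicron assembly and vesicle export list, 3 of 19 tested genes rose and 0 fell: Pla2g12b, needed for lipoprotein secretion in mouse liver (0.49, SE 0.054, adjusted p = 0.000671), Tm6sf2, an endoplasmic reticulum protein of lipoprotein lipidation (0.20, adjusted p = 0.00752), and Mia3, an export factor for bulky cargo (0.13, adjusted p = 0.0375). The Mia3 call was lost in 12 of the other settings at the same threshold. The median of the list was 0.025.

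Triglyceride and phospholipid resynthesis had 3 of 13 tested genes higher and 1 lower, beside 9.68% and 8.2% of all genes tested. Lpin2 and Lpin3, which encode phosphatidate phosphatases, rose by 0.37 (SE 0.044, adjusted p = 0.000966) and 0.22 (SE 0.044, adjusted p = 0.0110). Agpat2, an acyltransferase that makes phosphatidic acid, rose by 0.14 (adjusted p = 0.0321), and Dgat2, the triglyceride synthase unrelated to Dgat1, fell by 0.14 (adjusted p = 0.0494). At the same threshold the Agpat2 call was lost in 6 other settings and the Dgat2 call in 9, 5 of them in each case with 1 array left out. In fatty acid binding and acyl-CoA activation, 1 of 12 tested genes rose and 1 fell. The one that rose was Rbp2, the retinol binding protein of enterocytes (0.16, adjusted p = 0.0419, a call lost in 7 other settings), and the one that fell was Fabp4, the fatty acid binding protein of adipocytes (9.17 ± 0.0996 in HDAC2 KO and 11.29 ± 0.045 in control).

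Uptake and storage genes had more falls than rises, where 9.68% of all genes tested rose and 8.2% fell. In lipid digestion and apical uptake 0 of 11 rose and 4 fell: the fatty acid translocase gene Cd36 by 1.41 log2 units, the lipase-related gene Pnliprp2 by 1.21, the colipase gene Clps by 0.65 and Slc27a2, a fatty acid transport protein and acyl-CoA synthetase, by 0.53. In lipid droplet storage 1 of 16 rose and 5 fell. Ces1d, a carboxylesterase, fell by 0.85, and the droplet coat genes Plin4 and Plin2 by 0.45 and 0.25, while the carboxylesterase gene Ces1f rose by 0.32. Of 7 tested genes of plasma lipolysis and lacteal uptake 0 rose and 3 fell: the lipoprotein lipase gene Lpl by 1.41 (9.44 ± 0.039 in HDAC2 KO and 10.86 ± 0.038 in control), its inhibitor Angptl4 by 0.49 and the lymphatic receptor gene Flt4 by 0.15. The Flt4 call was lost in 8 other settings, and with its probe sets averaged the difference was -0.021 (adjusted p = 0.727).

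Adipocyte markers moved with these falls. All 5 tested genes of the 10 in the adipocyte list fell, where 8.2% of all genes tested did. Adipoq read 7.29 in HDAC2 KO and 10.32 in control. The summed signal of the 8 with a probe set was 11.15 to 11.21 in HDAC2 KO and 13.60 to 13.68 in control. Fabp4, Lipe, Plin1, Cidea and Cidec stand in both the adipocyte and the lipid lists. The part of fat tissue in the falls of Cd36, Lpl, Fabp4 and the droplet genes was not tested, and in bulk samples fewer cells of a type cannot be told apart from less RNA per cell.

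Other apolipoproteins and sterol transporters had more falls than rises, where 9.68% of all genes tested rose and 8.2% fell. Of 7 tested apolipoprotein genes outside the set, 1 rose, Apol7a (0.23, adjusted p = 0.0200, a call lost in 4 other settings), and 3 fell, Apoe, Apoc1 and the clusterin gene Clu (-0.21, adjusted p = 0.00283). Of 10 tested genes of cholesterol absorption and efflux 0 rose and 4 fell. Abcg5, which encodes a subunit of the apical sterol exporter, fell by 0.44, the efflux transporter genes Abcg1 and Abca1 by 0.40 and 0.35, and Npc2, a lysosomal sterol carrier, by 0.13, a call lost in 8 other settings.

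Regulators of enterocyte lipid genes were called in 10 of 22 cases, 7 higher and 3 lower, with a median of 0.076, where 17.9% of all genes tested were called. These counts changed with 1 array left out, as did those over all genes (1952 as reported, 1138 to 2125 with 1 array left out). The regulator counts were 4 higher and 0 lower without control replicate 1, 4 and 2 without control replicate 2, and 5 and 1 without control replicate 3. Without HDAC2 KO replicate 1, 2 or 3 they were 5 and 3, 8 and 2, and 7 and 2. Isx, an intestinal homeobox repressor of the lipid receptor gene Scarb1, rose 1.43-fold (8.70 ± 0.079 in HDAC2 KO and 8.19 ± 0.026 in control, adjusted p = 0.000199). Cdx2, a homeobox factor of intestinal identity, rose by 0.20 (SE 0.031, adjusted p = 0.00360), Nr1h4, the bile acid receptor FXR, by 0.20 (SE 0.036, adjusted p = 0.00669) and Pparg, a fatty acid receptor, by 0.35 (SE 0.066, adjusted p = 0.00854). The 3 lower were Foxo1 (-0.26, adjusted p = 0.0142), Nr2f2 (-0.17, adjusted p = 0.0111) and Nr1h3 (-0.17, adjusted p = 0.0475). Hnf4a and Hnf4g, nuclear receptors of enterocytes, read 12.91 and 7.64 in HDAC2 KO and 12.89 and 7.55 in control, and neither was called.

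**Figure D5:**
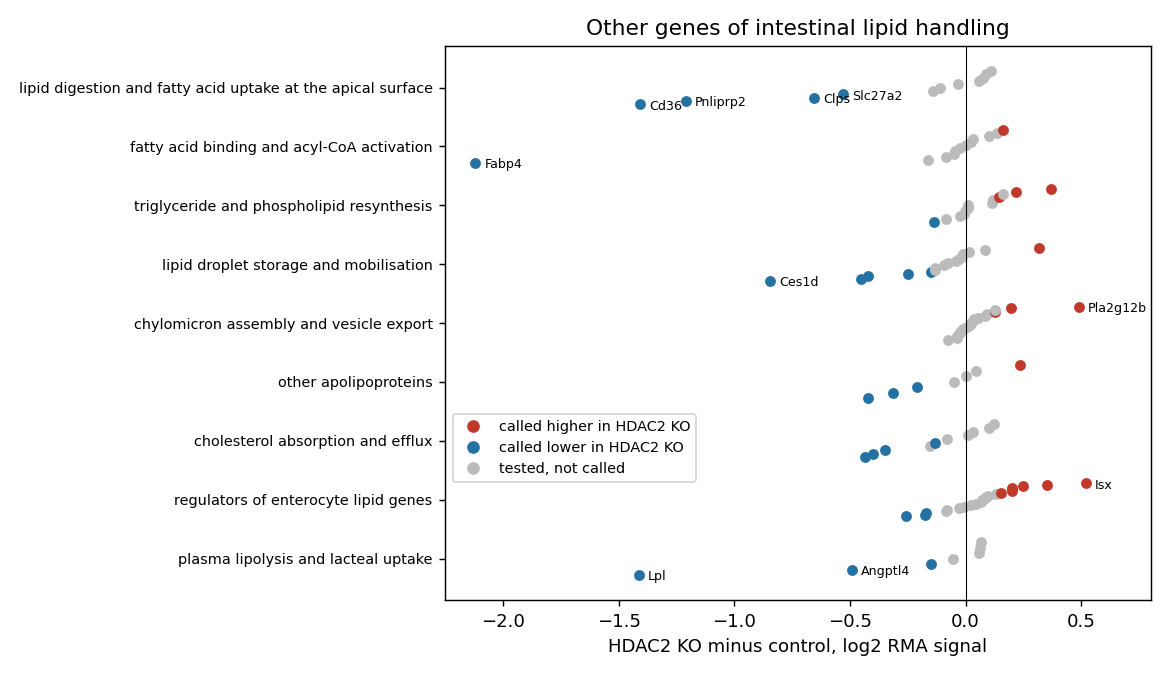
Difference in log2 RMA signal, HDAC2 KO minus control, of each tested gene in the 9 lists of other lipid handling genes, coloured where called. The largest falls are those of Fabp4, Cd36, Lpl and Pnliprp2, and the largest rises those of Isx and Pla2g12b.

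Markers were read to place these values among the cells a colon sample holds. Among all genes tested, 9.68% rose and 8.2% fell. None of 10 pan-epithelial genes was called, and their summed signal was 16.83 to 16.85 in HDAC2 KO and 16.80 to 16.81 in control. In the absorptive colonocyte list 9 of 16 tested genes rose and 1 fell (summed signal 16.63 to 16.67 in HDAC2 KO and 16.45 to 16.46 in control). The colonic carbonic anhydrase gene Car1 was among the 9 that rose, at 13.93 in HDAC2 KO and 13.47 in control. The 1 that fell was Atp12a, at 11.77 in HDAC2 KO and 12.06 in control (adjusted p = 0.00216). In the small intestinal enterocyte list 3 of 10 tested genes rose and 2 fell, with a summed signal of 13.58 in HDAC2 KO (all 3 arrays) and 13.43 to 13.48 in control. Alpi, the intestinal alkaline phosphatase gene, rose by 1.25. The 2 that fell were Dpp4, by 0.15 (adjusted p = 0.0362), and Naaladl1, by 0.30 (adjusted p = 0.00328). The small intestinal genes Slc5a1 and Mgam, a sugar transporter and a brush border glucosidase, differed by 0.089 and 0.052 and were not called. Where 3.88% of all genes rose and 3.74% fell without the signal filter, 5 genes of this list rose and 1, Naaladl1, fell. The 3 of them that lay under the filter were Lct, the lactase gene, at 5.76 in HDAC2 KO and 4.51 in control (adjusted p = 0.0105), the cytochrome P450 gene Cyp3a11, at 6.39 in HDAC2 KO and 4.48 in control (adjusted p = 5.91e-05), and the glucose transporter gene Slc2a2, at 4.38 in HDAC2 KO and 3.74 in control (adjusted p = 0.00340). In the hepatocyte list 1 of 4 tested genes rose and 2 fell, and Alb, the albumin gene, lay under the filter at 5.99 in HDAC2 KO and 6.60 in control. Of 5 tested lymphatic endothelial genes 0 rose and 3 fell, of 4 T cell genes 0 rose and 2 fell, of 8 B cell and plasma cell genes 0 rose and 8 fell, and of 8 smooth muscle genes 3 rose and 0 fell. The part of these cell types in the rises of the binding proteins and apolipoproteins was not tested.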

How the data were processed

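Per the labels' protocols, colon RNA of 3 HDAC2 KO and 3 control mice was hybridised to mouse expression arrays, 1 array per sample. The deposited values were made with RMA, a name taken from the submitters' processing notes without a version, and were read as log2 signals from their range, since no source used names the base of the log. RMA subtracts background, which compresses low signals, and sets all arrays to one distribution, which hides a change in total RNA. After 64 array control probe sets were left out, 45037 remained. Of these, 34945 had 1 gene symbol in the platform annotation of 2016, 932 had several and were named for none, and 9160 had none. limma 3.58.1 in R 4.3.3 tested genes (the brightest probe set of each, mean signal at or above the 40th percentile) and all probe sets, with Benjamini-Hochberg adjustment over all features tested and a threshold of 0.05. Members were described by all their probe sets, and up to 4 called genes with the smallest p in each lipid list were named, with the genes in and beside the apolipoprotein clusters and the nearest profiles. Genes outside that rule (markers, Lipe, Plin1, Cidea, Cidec, Hnf4a, Hnf4g, Foxo1, Nr2f2, Nr1h3) were named after their values were seen. Members and lists were chosen with earlier results of these data known.

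On simulated data with 200 changed features, the gene test over 10916 genes recovered 52% of log2 changes of 0.2, 68% of 0.3, 86% of 0.5 and 100% of 1. The probe set test over 45037 recovered 0%, 6%, 52% and 84%. Of the simulated calls, 4.4% in the gene test and 6.6% in the probe set test were false. The data had more features called, 1952 genes and 1712 probe sets, so these percentages do not carry over exactly. The labels give both groups the numbers 1 to 3. Deviations of same-numbered arrays from their group means correlated at r = 0.21, 0.34 and 0.20 over probe sets, and others at -0.37 to 0.18. Deviations within a group cancel out, so these correlations cannot all have 1 sign and do not settle a pairing. The labels state none, and the numbers served as a block in an alternative fit only. The fit without this block was the one reported. Alternatives varied the filter, normalization, variance model, array weights, probe set choice, threshold and the arrays included. The number of arrays limits the precision.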

Additional observations from a re-analysis of the deposited data

How the results depend on the processing

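The genes called numbered 1952 as reported, 3506 with array weights, 954 at an adjusted p under 0.01 and 1138 to 2125 when 1 array was left out (1284 without HDAC2 KO replicate 1, 1138 without control replicate 1 and 1280 without control replicate 2). Member genes called higher numbered 4 as reported and 4 with any 1 array left out. They numbered 2 (Fabp2 and Apoa4) with a filter at the 60th percentile, which leaves fewer members tested. With all probe sets of a gene averaged they numbered 7, where Fabp1, Mogat2 and Apoc3 passed the filter. Fabp1 (control means 5.30 and 5.08 by probe set) and Apoc3 (control mean 5.52) passed it only through their HDAC2 KO signals. Their calls in that setting are thus no separate support. The 1 called lower, Apob, was called with any 1 array left out and not with the mean of its probe sets, where 0 were. Member probe sets called higher numbered 12 as reported, 12 to 13 with 1 array left out, and 6 without probe sets that can bind several transcripts, a setting in which Apoa1 has no reading. Member probe sets called lower numbered 0 as reported and with any 1 array left out, and 1, that of Apob, with a filter at the 60th percentile, further quantile normalization, an intensity trend with robust variances, or an adjusted p under 0.10. Genes of the lipid lists called higher numbered 16 as reported, 10 without a filter, 25 with array weights, 8 at an adjusted p under 0.01 and 10 to 17 with 1 array left out (10 without HDAC2 KO replicate 1, or without control replicate 1, 2 or 3), and those called lower 24 as reported and 16 to 22 with 1 array left out. The calls of Agpat2, Apol7a, Dgat2, Flt4, Mia3, Npc2 and Rbp2 were each lost in several settings. The Hdac2 difference was -0.22 with an adjusted p of 0.0957 without probe sets that can bind several transcripts, and -0.24 to -0.18 with 1 array left out. The dimmer Dgat1 probe set turned to -0.013 without HDAC2 KO replicate 2 and reached 0.084 without control replicate 3. Apart from settings that test fewer features or arrays, the causes were not tested. With the replicate block for the pairing, 1943 genes were called, the member counts stayed at 4 higher and 1 lower and at 12 and 0 probe sets, and of the list genes named the Mia3 call was lost (adjusted p = 0.0596). The pairs of genes could not reach a p under 0.1 in any setting, and Apoa4 minus Apoa1 has no value without probe sets that can bind several transcripts.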
